A study of Mus musculus with 15 samples.

Results

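The 10 genes described here encode the lysosomal nutrient-sensing loop of the Rag GTPases (Rraga, Rragc and Rragd), folliculin and its partners (Flcn, Fnip1 and Fnip2), the MiT/TFE transcription factors (Tfeb, Tfe3 and Mitf) and the target Gpnmb. They were named as members of this loop, with earlier results of these data known, and their symbols were matched to mouse Ensembl identifiers. All 10 had a row in a table of 57186 genes, and all 10 were among the 19839 genes with enough counts to be tested. Gene expression was measured by RNA sequencing of RAW 264.7 cells, a mouse macrophage-like line, in 15 libraries with 3 in each of 5 groups. The cells were nontreated (Control) or were exposed for 6 h to SNP100, nonporous silica nanoparticles of 100 nm at 50 µg/mL, to SNP50, nonporous particles of 50 nm at 25 µg/mL, to MSNP, mesoporous particles of 100 nm at 200 µg/mL, or to HMSNP, hollow mesoporous particles of 100 nm at 200 µg/mL. The doses differed between particles except for MSNP and HMSNP, which were matched in dose, time and nominal diameter. No group carried a genetic change, and all groups came from one cell line.

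On the lysosomal surface, RagA or RagB pairs with RagC or RagD, and the dimer recruits the growth kinase complex mTORC1 when amino acids are plentiful. The folliculin-FNIP complex acts on RagC and RagD, and in the nucleotide state it favours these GTPases hold TFEB, TFE3 and MITF at the lysosome, where mTORC1 phosphorylates them and keeps them in the cytoplasm. Factors that escape this control enter the nucleus and bind E-box sequences of lysosomal genes, a set known as the CLEAR network, and of several genes of the loop itself. In macrophages these factors are known for their part in lysosome formation and the response to engulfed material. RNA counts report transcript levels and not where a factor sits or whether it is phosphorylated.

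Promoters were searched for E-boxes of the form CACGTG with its longer forms TCACGTG and GTCACGTG, and for TCATGTG, each on both strands. The longer forms contain CACGTG, so their counts overlap. In RefSeq windows on GRCm38.p6, from 250 bases before a start to 50 after it, Rragc and Fnip1 held CACGTG, both inside the longer TCACGTG read on the other strand, as CACGTGA. Of 32851 such windows in all, 7.15% held CACGTG and 3.77% held TCACGTG. The 250 upstream bases of both genes are shown because they carry the motif (capitals), at chr4:123917183-123917432 for Rragc and at chr11:54437929-54438178 for Fnip1, both on the plus strand.
Rragc: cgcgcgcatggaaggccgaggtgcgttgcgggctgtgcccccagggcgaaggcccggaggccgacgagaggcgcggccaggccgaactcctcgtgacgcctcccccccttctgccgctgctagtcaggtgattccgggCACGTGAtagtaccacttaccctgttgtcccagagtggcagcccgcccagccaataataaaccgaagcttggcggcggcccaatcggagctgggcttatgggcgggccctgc
Fnip1: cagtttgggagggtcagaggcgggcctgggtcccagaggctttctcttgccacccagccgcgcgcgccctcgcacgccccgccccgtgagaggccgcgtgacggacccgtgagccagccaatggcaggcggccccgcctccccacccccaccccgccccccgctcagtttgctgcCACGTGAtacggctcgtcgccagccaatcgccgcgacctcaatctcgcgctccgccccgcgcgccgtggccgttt
In wider windows of 500 bases on either side of the canonical start on GRCm39, Rragd also held a CACGTG, 380 bases upstream, at chr4:32982587-32982626 on the plus strand.
Rragd: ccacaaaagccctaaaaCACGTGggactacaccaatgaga
Gpnmb held TCATGTG, 100 bases downstream of its start, and no CACGTG. None of the 4 motifs lay in the wider windows of Rraga, Flcn, Fnip2, Tfeb, Tfe3 or Mitf. A match describes these letters only, since no binding was measured.

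Positions are on GRCm39. Rraga spans chr4:86493905-86495522 on the plus strand, Rragc chr4:123811217-123830793 on the plus strand and Rragd chr4:32982984-33025899 on the plus strand. Flcn spans chr11:59682196-59701138 on the minus strand, Fnip1 chr11:54328978-54409067 on the plus strand and Fnip2 chr3:79363280-79475188 on the minus strand. Tfeb spans chr17:48047837-48103348, Tfe3 chrX:7628761-7641444, Mitf chr6:97783950-97998323 and Gpnmb chr6:49013426-49047863, all on the plus strand. All 10 are protein-coding, and counts cover the exons of each whole gene, so the isoforms of Mitf were not told apart. Exons of a noncoding RNA on the other strand overlap 14.9% of the exon bases of Rragc (Gm12905), 7.57% of Rragd (4933421O10Rik), 4.69% of Flcn (Gm16062) and 2.87% of Gpnmb (Gm56981). The use of strand in counting is not given in the sources used here, so reads in these stretches cannot be assigned to one gene.

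The libraries held 29369934 to 42617812 counts. The macrophage label was checked with 9 markers, all of which were detected in every library (2.98 to 14582 CPM, counts scaled to the size of each library), while 8 markers of other cell types lay between 0 and 3.10 CPM, with Epcam and Kit at 0. In MSNP, 6 of the 9 macrophage markers were called lower and Cd68 was called higher than in Control. Their part in the results was not tested, and in bulk RNA a change in every cell and a change in some of the cells cannot be told apart. The Control libraries differed from one another more than the treated ones did, with a mean chi-square per gene of 73.1 to 226 between Control libraries and of 4.95 to 15.3 within treated groups, where sampling noise alone gives about 1. Control replicate 3 stood apart by transcript length, with a median log2 difference from the other Control libraries of 0.65 for the shortest genes and -0.78 for the longest, and values of the 10 genes against Control whose call turns on it are given with and without it. The labels carry a different number for each group and do not say what it stands for. If it marks a batch, batch and treatment cannot be told apart.

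MSNP treatment was accompanied by higher transcript levels of all 3 Rag GTPases, of Flcn, Fnip1 and Fnip2 and of Gpnmb, and by lower levels of Tfe3 and Mitf. A gene is called here when the Benjamini-Hochberg adjusted p of edgeR's quasi-likelihood test, fitted on all genes and all 15 libraries, was under 0.05. In MSNP against Control, 7 of the 10 genes were called higher and 2 lower, and Tfeb was not called. Of all genes tested, 22.8% were called in this comparison, 11.8% higher and 11% lower. Among the 11540 genes with a mean of at least 1 CPM, 33.2% were called. The median log2 fold change of the 10 genes was 1.33, beside -0.05 over all genes tested.

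The nonporous and hollow particles gave smaller differences. In SNP100 against Control, Rragc, Rragd, Flcn and Gpnmb were called higher (4 of 10, against 0.912% of all genes). In SNP50 against Control, Flcn and Gpnmb were called higher and Tfe3 lower (3 of 10, against 1.41% of all genes). Without Control replicate 3 the counts were 7 for SNP100 and 8 for SNP50, but the calls over all genes rose as well, to 5.16% and 18.9%. With only the 6 libraries of each comparison they were 0 and 0, with 6 and 5 genes at an unadjusted p under 0.05, where 0% and 0.00574% of all genes were called. In HMSNP against Control, edgeR called 0 of the 10 genes and so did DESeq2, with 3 and 4 genes at an unadjusted p under 0.05. Of all genes, edgeR called 5.16%, and DESeq2 called 15.1% of the 12910 to which it gave an adjusted p. The edgeR count was 4 without Control replicate 2, with Rragc, Fnip1, Fnip2 and Gpnmb higher, and the share of all genes called in that fit was not counted. It was 1 without Control replicate 3, with Tfeb higher, where 8.66% of all genes were called.

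**Figure D1:**
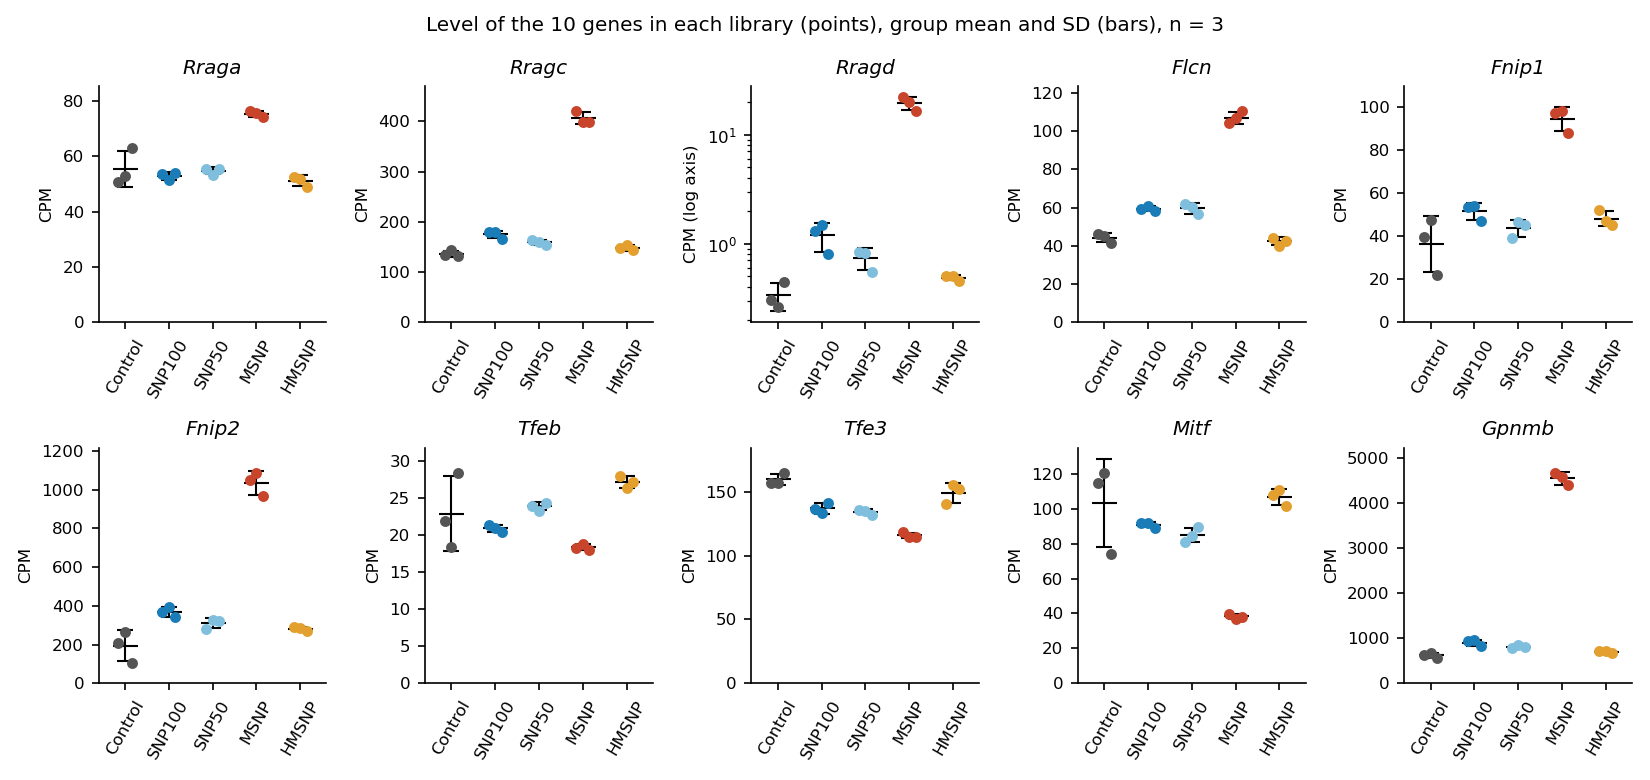
CPM of the 10 genes in each library (points, linear axes from 0 except Rragd, which has a log axis), with group means and SDs (bars, n = 3) for Control, SNP100, SNP50, MSNP and HMSNP. The MSNP libraries lie above every other library for Rraga, Rragc, Rragd, Flcn, Fnip1, Fnip2 and Gpnmb and below every other library for Tfe3 and Mitf, and 1 Control library lies low for Fnip1, Fnip2 and Mitf.

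Rragd encodes RagD, a partner of RagA or RagB that recruits mTORC1. It was counted 10, 9 and 17 times in the Control libraries (0.304, 0.260 and 0.443 CPM), and 664, 742 and 555 times in the MSNP libraries (21.9, 20.02 and 16.5 CPM). The SNP100 libraries held 1.30, 1.47 and 0.803 CPM, the SNP50 libraries 0.844, 0.822 and 0.544 CPM, and the HMSNP libraries 0.500, 0.504 and 0.458 CPM. No treated library of any group overlapped Control, and no library of another group came near the MSNP libraries. The log2 fold change against Control was 5.83 (SE 0.23, adjusted p = 1.26e-10, edgeR) in MSNP and 1.80 (SE 0.28, adjusted p = 0.00484) in SNP100. In SNP50 it was 1.11 (SE 0.30, adjusted p = 0.103) and was not called, while it was called by DESeq2 (1.13, adjusted p = 0.0251) and by edgeR without Control replicate 3 (1.37, adjusted p = 0.0164). In HMSNP it was 0.51 (SE 0.32, adjusted p = 0.332) and was not called. The Control counts are few, so the size of the fold rests on 36 reads over 3 libraries, and it ranged from 5.68 without Control replicate 2 to 6.10 without Control replicate 3.

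Rragc encodes RagC, the paralog of RagD. Its CPM was 133, 142 and 131 in Control and 420.4, 399 and 399 in MSNP. The SNP100 libraries held 178, 178 and 166 CPM, the SNP50 libraries 163, 159.9 and 154 CPM, and the HMSNP libraries 147, 154 and 143 CPM. All treated libraries lay above all Control libraries, by a narrow margin in HMSNP. Rragc was 3.0-fold higher in MSNP than in Control (log2 fold change 1.59, SE 0.06, adjusted p = 1.08e-10, edgeR), and it rose by 0.36 on the log2 scale in SNP100 (SE 0.06, adjusted p = 0.00785). The SNP100 call was lost without SNP100 replicate 2 (0.35, adjusted p = 0.062). The SNP50 difference of 0.23 (SE 0.06, adjusted p = 0.0898) was not called, while it was called by DESeq2 (adjusted p = 0.00513) and by edgeR without Control replicate 3 (0.20, adjusted p = 0.0095). The HMSNP difference of 0.13 (SE 0.06, adjusted p = 0.216) was not called, but was without Control replicate 2 (0.18, adjusted p = 0.0433).

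Rraga encodes RagA, which pairs with RagC or RagD. Its CPM was 50.6, 52.7 and 63.1 in Control and 76.4, 75.6 and 74.2 in MSNP, and the 9 libraries of the other treated groups lay between 49.0 and 55.6 CPM. Only the MSNP libraries stood clear of Control. The rise was 0.44 on the log2 scale (SE 0.08, adjusted p = 0.000487, edgeR), the smallest among the 7 genes called higher, and Rragb, which encodes the alternative partner RagB, rose by 0.47 (SE 0.08, adjusted p = 0.000488).

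The Rag transcripts were also compared as TPM, levels scaled to transcript length and library size. Rragd made up 0.126% ± 0.0404 (SD, n = 3) of the summed TPM of Rragc and Rragd in Control and 2.36% ± 0.281 in MSNP. The share was 0.342% in SNP100, 0.233% in SNP50 and 0.166% in HMSNP. Every library of SNP100, SNP50 and MSNP lay above every Control library, and the exact two-sided permutation p was 0.1, the smallest that 3 against 3 allows (0.25 after adjustment over 25 tests of shares). In HMSNP the p was 0.3 by the same exact test. Rragc thus remained the far more abundant transcript in MSNP, where the sum of both was 449 TPM, against 143 in Control.

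Flcn encodes folliculin, which stimulates GTP hydrolysis by RagC and RagD. Its CPM was 46.2, 44.9 and 41.5 in Control and 104, 107 and 111 in MSNP. Both nonporous groups lay between these, at 59.4, 60.7 and 58.2 CPM in SNP100 and 62.1, 60.1 and 56.6 CPM in SNP50, while HMSNP held 44.0, 39.9 and 42.6 CPM. The libraries of SNP100, SNP50 and MSNP did not overlap Control, and those of HMSNP did. Flcn was 2.43-fold higher in MSNP (log2 fold change 1.28, SE 0.07, adjusted p = 1.62e-09, edgeR) and rose by 0.43 in SNP100 and by 0.43 in SNP50 (SE 0.07 in each, adjusted p = 0.00484 and 0.00464). In HMSNP the difference was -0.07 (SE 0.07, adjusted p = 0.558). Flcn was lower in HMSNP than in SNP100 by 0.49 and than in SNP50 by 0.50 on the log2 scale (adjusted p = 0.000352 and 0.000298), and it was the only one of the 10 genes called between HMSNP and SNP50.

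Fnip2 and Fnip1 encode the folliculin-interacting proteins, scaffolds that folliculin needs for its activity. Fnip2 held 209, 266 and 106 CPM in Control and 1049, 1088 and 969 CPM in MSNP. It held 367, 392 and 343 CPM in SNP100, 281, 329 and 323 CPM in SNP50, and 288, 285 and 271 CPM in HMSNP. All treated libraries lay above all Control libraries, of which replicate 3 was the lowest. Fnip2 was 5.35-fold higher in MSNP (log2 fold change 2.42, SE 0.22, adjusted p = 9.78e-07, edgeR), with a log2 value of 2.13 without Control replicate 3 and 2.72 without Control replicate 2. In SNP100 the difference of 0.93 (SE 0.22, adjusted p = 0.0646) was not called. It was called by DESeq2 (adjusted p = 0.00385), with no filter on low counts (adjusted p = 0.025) and with an offset that removes the length trend of each library (0.86, adjusted p = 0.00139). It was also called without Control replicate 3 (0.63, adjusted p = 0.000492) and without Control replicate 2 (1.22, adjusted p = 0.00644). The differences of 0.69 in SNP50 and 0.54 in HMSNP were not called (adjusted p = 0.168 and 0.148), and SNP50 was called at 0.39 without Control replicate 3 (adjusted p = 0.00578), at 0.98 without Control replicate 2 (adjusted p = 0.0237) and at 0.69 with the offset for length (adjusted p = 0.00581). HMSNP was called at 0.86 without Control replicate 2 (adjusted p = 0.00911).

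Fnip1 held 39.6, 47.5 and 21.7 CPM in Control and 97.5, 98.2 and 87.9 CPM in MSNP, and the other 9 treated libraries lay between 38.9 and 54.2 CPM. Only the MSNP libraries were clear of all the others. The log2 fold change in MSNP was 1.38 (SE 0.19, adjusted p = 7.05e-05, edgeR), and 1.13 without Control replicate 3. Fnip1 was not called in SNP100 (0.51, adjusted p = 0.343), SNP50 (0.27, adjusted p = 0.664) or HMSNP (0.41, adjusted p = 0.209), although HMSNP was called without Control replicate 2 (0.67, adjusted p = 0.0176). Without Control replicate 3, the lowest Control library, the values were 0.24 in SNP100, -0.004 in SNP50 and 0.14 in HMSNP. None of these was called (adjusted p = 0.164, 0.987 and 0.427, edgeR). As a share of the summed TPM of Fnip1 and Fnip2, Fnip2 made up 84.2% ± 0.924 (SD, n = 3) in Control, 87.9% in SNP100, 87.9% in SNP50, 85.6% in HMSNP and 91.8% ± 0.123 in MSNP, given as a description without a test.

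Tfe3 encodes the most abundant MiT/TFE transcript of these cells. Its CPM was 157, 157 and 165 in Control and 118, 115 and 115 in MSNP. It held 137, 133 and 141 CPM in SNP100, 136, 135 and 132 CPM in SNP50, and 140.3, 155 and 152 CPM in HMSNP. Every treated library lay below every Control library. Tfe3 fell by 0.46 on the log2 scale in MSNP (SE 0.06, adjusted p = 2.31e-05, edgeR). In SNP50 it was -0.25 with an adjusted p of 0.0497, just inside the threshold, and the call was lost when any single library other than Control replicate 3 was left out, with no filter on low counts (adjusted p = 0.183) and with the offset for length (adjusted p = 0.11). The SNP100 value of -0.22 (adjusted p = 0.106) was not called, while it was called by DESeq2 (adjusted p = 0.000724), with the filterByExpr filter (adjusted p = 0.0484) and without Control replicate 3 (-0.20, adjusted p = 0.0202). The HMSNP value of -0.10 (adjusted p = 0.306) was not called.

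Mitf encodes the family member best known from melanocytes and osteoclasts. Its CPM was 115, 121 and 74.3 in Control and 39.9, 36.6 and 38.2 in MSNP. It held 91.8, 92.0 and 89.0 CPM in SNP100, 81.2, 84.2 and 89.3 CPM in SNP50, and 108, 111 and 101 CPM in HMSNP. The MSNP libraries stood alone at the bottom, and all 3 other treated groups fell within the wide Control range. Mitf was 2.7-fold lower in MSNP (log2 fold change -1.43, SE 0.13, adjusted p = 9.57e-07, edgeR). With all libraries the differences of -0.18 in SNP100 and -0.28 in SNP50 were not called (adjusted p = 0.658 and 0.403). Without Control replicate 3 they were -0.37 and -0.48 and both were called (adjusted p = 0.000522 and 3.66e-05). In HMSNP the difference was 0.05 (SE 0.13, adjusted p = 0.849).

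Tfeb encodes the factor most studied as a regulator of lysosomal genes. Its CPM was 21.9, 18.4 and 28.4 in Control and 18.3, 18.8 and 18.02 in MSNP. It held 21.4, 21.0 and 20.4 CPM in SNP100, 24.0, 23.3 and 24.4 CPM in SNP50, and 28, 26.3 and 27.2 CPM in HMSNP. The MSNP range met that of Control. The MSNP difference of -0.32 (SE 0.11, adjusted p = 0.0576, edgeR) was not called, and it was -0.12 without Control replicate 3. It was called by DESeq2 (adjusted p = 0.0393), with the filterByExpr filter (adjusted p = 0.0451), with the offset for length (adjusted p = 0.0236) and without Control replicate 2 (-0.45, adjusted p = 0.00156). The SNP50 difference of 0.06 (adjusted p = 0.906) was called at 0.24 without Control replicate 3 (adjusted p = 0.0179). The HMSNP difference of 0.25 (adjusted p = 0.201) was called at 0.43 without that library (adjusted p = 0.000343) and at 0.33 with the offset for length (adjusted p = 0.0186).

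Within the family, including Tfec, a member found in macrophages, the makeup of the transcripts shifted in MSNP. The summed TPM of Tfeb, Tfe3, Mitf and Tfec was 133 ± 20.1 (SD, n = 3) in Control, 119 in SNP100, 115 in SNP50, 143 in HMSNP and 85.1 ± 0.899 in MSNP. Mitf made up 35.7%, 37.3% and 24.8% of that sum in the Control libraries and 19.8%, 18.6% and 19.5% in the MSNP libraries. Tfe3 made up 55.2% in Control and 63.6% in MSNP, and Tfec 1.37% and 3.37%. The shares of Mitf, Tfe3 and Tfec did not overlap between MSNP and Control, and each gave the smallest exact permutation p of 0.1 (0.25 after adjustment over the 25 tests). For Tfeb, at 10.8% and 13.7%, the exact p was 0.3. Taking the length of the longest transcript in place of all exons gave 46.9% and 55.7% for Tfe3 and 38.3% and 23.4% for Mitf.

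**Figure D2:**
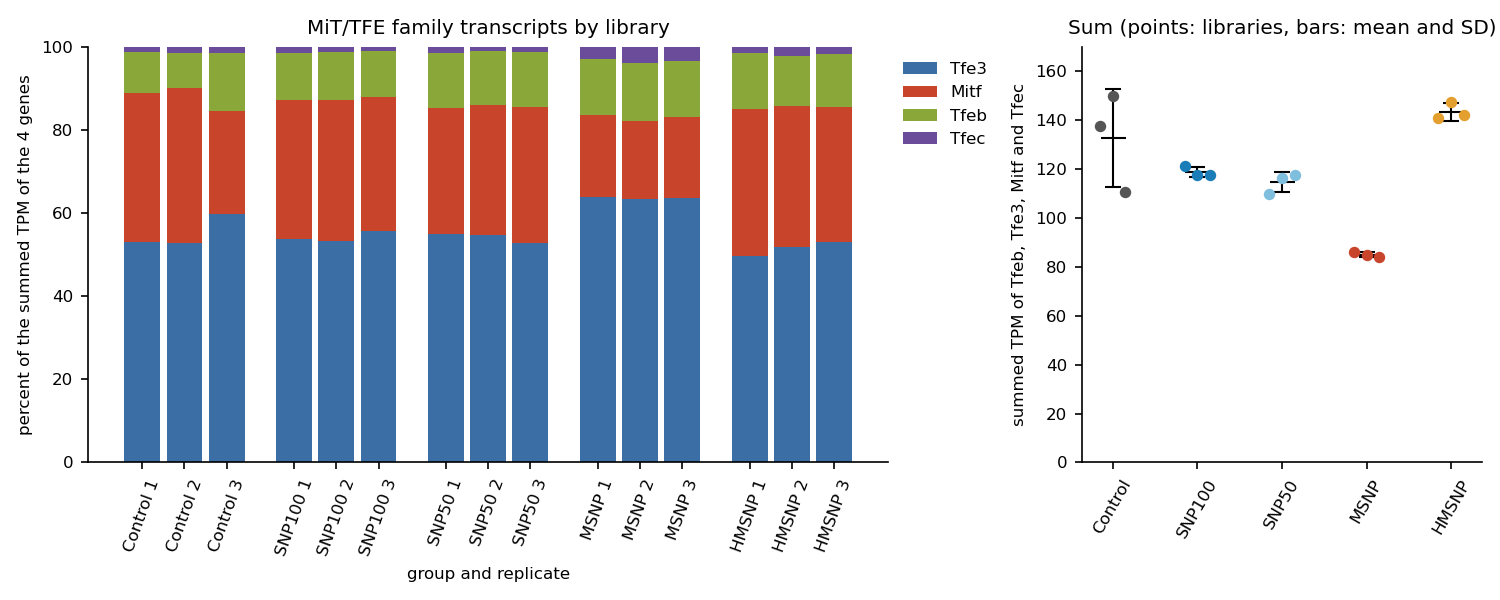
Left, stacked bars give for each library the percent of the summed TPM of Tfe3, Mitf, Tfeb and Tfec that each gene makes up; right, the summed TPM in each library (points) with group mean and SD (n = 3). Mitf takes 18.6% to 19.8% in the MSNP libraries, below each of the other libraries, and the MSNP sums of about 85.1 TPM are the lowest.

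Gpnmb encodes a transmembrane glycoprotein of macrophage lysosomes and a target of the MiT/TFE factors. Its CPM was 630.1, 667 and 560.0 in Control and 4681, 4577 and 4409 in MSNP. It held 929, 956 and 829 CPM in SNP100, 784, 844 and 797 CPM in SNP50, and 724, 716 and 677 CPM in HMSNP. All treated libraries lay above all Control libraries, and the MSNP libraries lay far above the rest. Gpnmb was 7.36-fold higher in MSNP (log2 fold change 2.88, SE 0.08, adjusted p = 2.63e-12, edgeR) and rose by 0.55 in SNP100 (SE 0.07, adjusted p = 0.00191) and by 0.39 in SNP50 (SE 0.07, adjusted p = 0.0173). The SNP50 call was lost when any single SNP50 library was left out. In HMSNP the difference was 0.19 (SE 0.07, adjusted p = 0.143) and was not called, but was without Control replicate 2 (0.26, adjusted p = 0.0227).

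**Figure D3:**
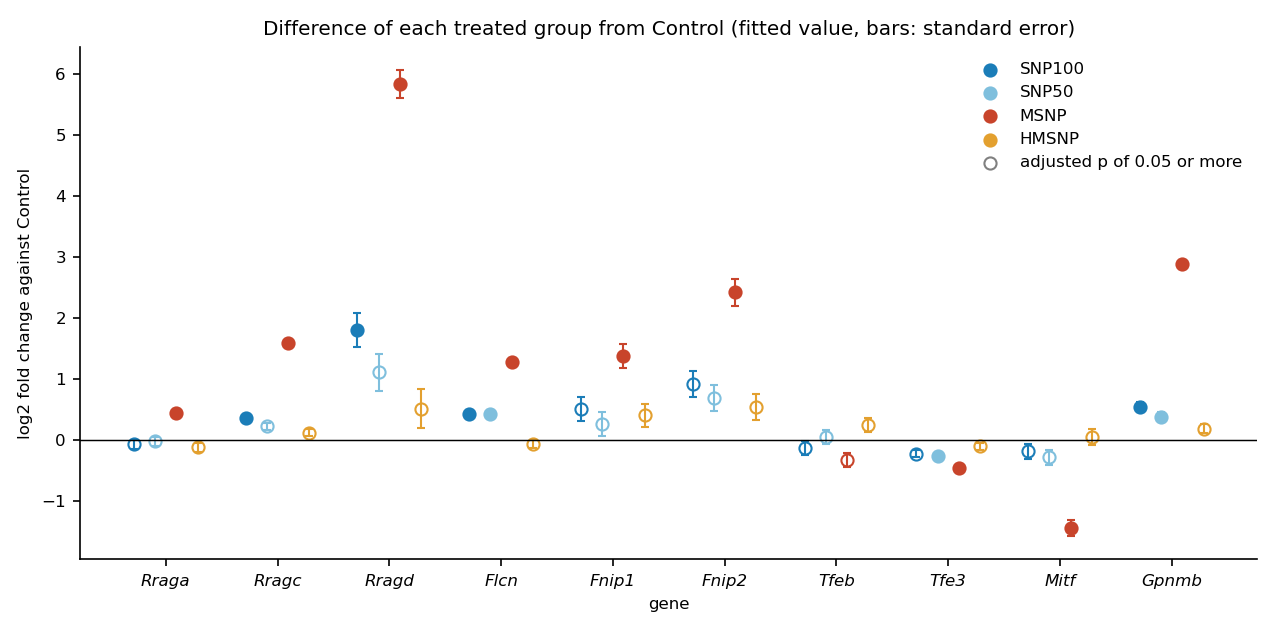
Fitted log2 fold change of each of the 10 genes against Control in the SNP100, SNP50, MSNP and HMSNP groups, with bars for the standard error and filled points for an adjusted p under 0.05. The MSNP values run from -1.43 for Mitf to 5.83 for Rragd, and no HMSNP point is filled.

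MSNP and HMSNP were compared directly at the same dose of 200 µg/mL. All 10 genes were called, 7 lower and 3 higher in HMSNP, while 20.2% of all genes were called, 11% lower and 9.22% higher. Rragd was 39.8-fold lower in HMSNP (log2 fold change -5.31, SE 0.22, adjusted p = 2.03e-10, edgeR), Gpnmb differed by -2.69 (adjusted p = 1.12e-11) and Fnip2 by -1.88 (adjusted p = 1.25e-05). Rragc differed by -1.46, Flcn by -1.34, Fnip1 by -0.97 and Rraga by -0.56 (adjusted p from 2.55e-10 to 0.00157). Mitf was higher in HMSNP by 1.48 (adjusted p = 7.34e-07), Tfeb by 0.56 (adjusted p = 0.00189) and Tfe3 by 0.36 (adjusted p = 0.000252). All 10 calls were also made without Control replicate 3. The median log2 fold change of the 10 genes was -1.16, beside 0.00 over all genes.

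MSNP was also compared with SNP100, the nonporous particle of the same diameter, although the doses differed. Again 7 genes were called higher and 2 lower (Tfe3 and Mitf), with 17.9% of all genes called. Rragd differed by 4.02 on the log2 scale, Gpnmb by 2.33, Fnip2 by 1.49 and Mitf by -1.25. Against SNP50, 7 genes were called higher and 3 lower in MSNP, Tfeb included (-0.38, adjusted p = 0.0254, edgeR), with 24% of all genes called. HMSNP differed from SNP100 in 4 genes, all lower in HMSNP, with 4.52% of all genes called. These were Rragc (-0.24), Rragd (-1.29), Flcn (-0.49) and Gpnmb (-0.36). Between HMSNP and SNP50 the background was 8.87%, and Flcn alone was called.

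With all 15 libraries, edgeR did not tell SNP50 and SNP100 apart at the adjusted threshold. edgeR called 0 of the 10 genes and 0% of all genes, with 3 of the 10 and 867 of all genes at an unadjusted p under 0.05, and DESeq2 also called 0 of the 10. The differences ran from -0.69 (SE 0.24) for Rragd to 0.19 (SE 0.11) for Tfeb, so the spread between libraries leaves room for differences of that size. These comparisons share groups, so their results are not independent of one another.

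Ordered by mean level, MSNP was at the top for Rraga, Rragc, Rragd, Flcn, Fnip1, Fnip2 and Gpnmb, and its difference from the next group was called for each. For Rragc, Rragd, Fnip2 and Gpnmb the order below it was SNP100, SNP50, HMSNP and Control, and no neighbours among those 4 groups differed beyond the threshold. For Flcn, Control and SNP100 were the other neighbours that were called (adjusted p = 0.00484, edgeR). MSNP was at the bottom for Tfe3 and Mitf, below SNP50 (adjusted p = 0.0147 and 1.15e-05), and for Tfeb, where the step to SNP100 was not called (adjusted p = 0.314). Compared per transcript length, the order of the genes in Control ran from Gpnmb at 401 TPM through Rraga at 145, Rragc at 143, Fnip2 at 87.9, Tfe3 at 72.8, Mitf at 44.1, Flcn at 25.0, Fnip1 at 16.1 and Tfeb at 14.0 to Rragd at 0.175 TPM. In MSNP, Gpnmb reached 2995 TPM, Fnip2 466, Rragc 438 and Rragd 10.6, while Mitf was at 16.4 TPM.

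The rest of the pathway was described by lists of genes. Of 7 genes for the Ragulator scaffold, Rragb and the amino acid transporter SLC38A9, 2 were called higher in MSNP, Rragb and Lamtor3 (0.87 on the log2 scale, adjusted p = 1.87e-07, edgeR). Of all genes tested 22.8% were called in MSNP against Control, and 33.2% of those with a mean of at least 1 CPM. Without Control replicate 3 the list's count was 4, where 29.5% of all genes were called. Of 7 genes for GATOR1 and KICSTOR, which restrain the Rag GTPases, 0 were called in MSNP by edgeR or DESeq2, with 0 at an unadjusted p under 0.05. Of 5 genes for GATOR2, which opposes GATOR1, 0 were called against Control in any treated group by either tool, with between 0 and 1 genes at an unadjusted p under 0.05 in each. Without Control replicate 3, edgeR called 2 of the 5 lower in SNP50, 1 lower in MSNP and 0 in SNP100 and HMSNP. In those SNP50 and MSNP fits 18.9% and 29.5% of all genes were called. The median log2 fold change in MSNP was 0.03 in the first of these lists, 0.03 in the second and -0.02 in the third, beside -0.05 over all genes.

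Among 6 sensors of amino acids and S-adenosylmethionine, Sesn2, a leucine sensor induced by stress, rose by 0.95 in MSNP (adjusted p = 5.46e-05, edgeR). Sesn1 was lower in all 4 treated groups, with log2 fold changes of -0.35 (SNP100), -0.31 (SNP50), -0.36 (MSNP) and -0.48 (HMSNP), all called, against the same Control libraries. Of 10 genes for mTORC1, its activator RHEB and the inhibitory TSC complex, Tsc1 rose by 1.01 (adjusted p = 0.00166) and Rhebl1 fell by 0.87 (adjusted p = 0.0095) in MSNP, neither of them called with only the 6 libraries of the comparison, and Mtor (0.03) and Rptor (0.38) were not called. In HMSNP, Deptor, an inhibitor of mTOR, was higher by 0.52 and Nprl2 of GATOR1 was lower by 0.48 on the log2 scale (adjusted p = 0.0216 and 0.0235, edgeR). Deptor and Nprl2 were not called with only the 6 libraries of that comparison.

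Of 17 genes for TFEC and regulators of folliculin or the MiT/TFE factors, 5 were called higher in MSNP and 1 lower, a share near the 33.2% called among all genes with a mean of at least 1 CPM. With only the 6 libraries of the comparison, 2 were called higher and 0 lower, with 5 at an unadjusted p under 0.05. Those higher with all libraries were C9orf72 (1.34, adjusted p = 6.52e-08, edgeR), whose protein forms a complex with that of Smcr8 (0.81) and shares its fold with folliculin, Mcoln1, the lysosomal calcium channel (1.23), Tfec (0.62) and Ppp3r1 (0.21), a calcineurin subunit. Ywhah, which encodes a 14-3-3 protein, fell by 0.30. The list's median was 0.07.

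Of 32 lysosomal and autophagy genes of the CLEAR network, 25 were called higher and 2 lower in MSNP against Control, with a median log2 fold change of 0.75. Of all genes tested, 11.8% were called higher and 11% lower. Gla, which encodes alpha-galactosidase A, rose by 1.93, Clcn7, a lysosomal chloride-proton exchanger, by 1.64, Naglu, a heparan sulfate hydrolase, by 1.21, and Ctsb, cathepsin B, by 1.14. Wipi1, an autophagy protein, fell by 1.63, and Ctsf, cathepsin F, fell by 0.44. In HMSNP against MSNP 27 of the 32 were called lower and Wipi1 higher (1.0), with a median of -0.76, and in HMSNP against Control 0 were higher and Wipi1 was lower (-0.63). The shares of all genes called were 20.2% in HMSNP against MSNP and 5.16% in HMSNP against Control. In SNP100, Gla (0.48) and Naglu (0.30) were called higher, and in SNP50 Naglu (0.36). Those 2 counts were 12 and 15 without Control replicate 3, the latter with 14 higher and 1 lower, while the calls over all genes rose from 181 to 1012 in SNP100 and from 280 to 3713 in SNP50. With only the 6 libraries of each comparison, 0 of the 32 were called against Control in SNP100, SNP50 or HMSNP. In those fits 0%, 0.00574% and 0.439% of all genes were called. For MSNP that setting gave 22 higher and 1 lower, with 13.0% of all genes called.

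Of 20 genes known as MITF targets in melanocytes or osteoclasts, 13 passed the filter on low counts, and 6 were called higher and 2 lower in MSNP. The share called was 22.8% of all genes tested and 33.2% of those with a mean of at least 1 CPM. Tspan10, a tetraspanin, had a log2 fold change of 5.63 from 0.323 to 16.5 CPM, Atp6v0d2, a proton pump subunit, 2.7, and Irf4, a transcription factor, 2.67. Trpm1 (1.35), Ostm1 (0.98) and Ctsk (0.84) were also higher, while Acp5 (-0.31) and Cdk2 (-0.25) were lower. Atp6v0d2 was called higher in SNP100 (0.54) and HMSNP (0.47) as well, and Acp5 was called lower in HMSNP (-0.44). With only the 6 libraries of each comparison, 6 genes of this list were called higher and 0 lower in MSNP. That setting called 0 of them in SNP100 or HMSNP. The shares of all genes called in those fits were 13.0% in MSNP, 0% in SNP100 and 0.439% in HMSNP. The lists were written with earlier results of these data known, and they overlap in Mcoln1.

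**Figure D4:**
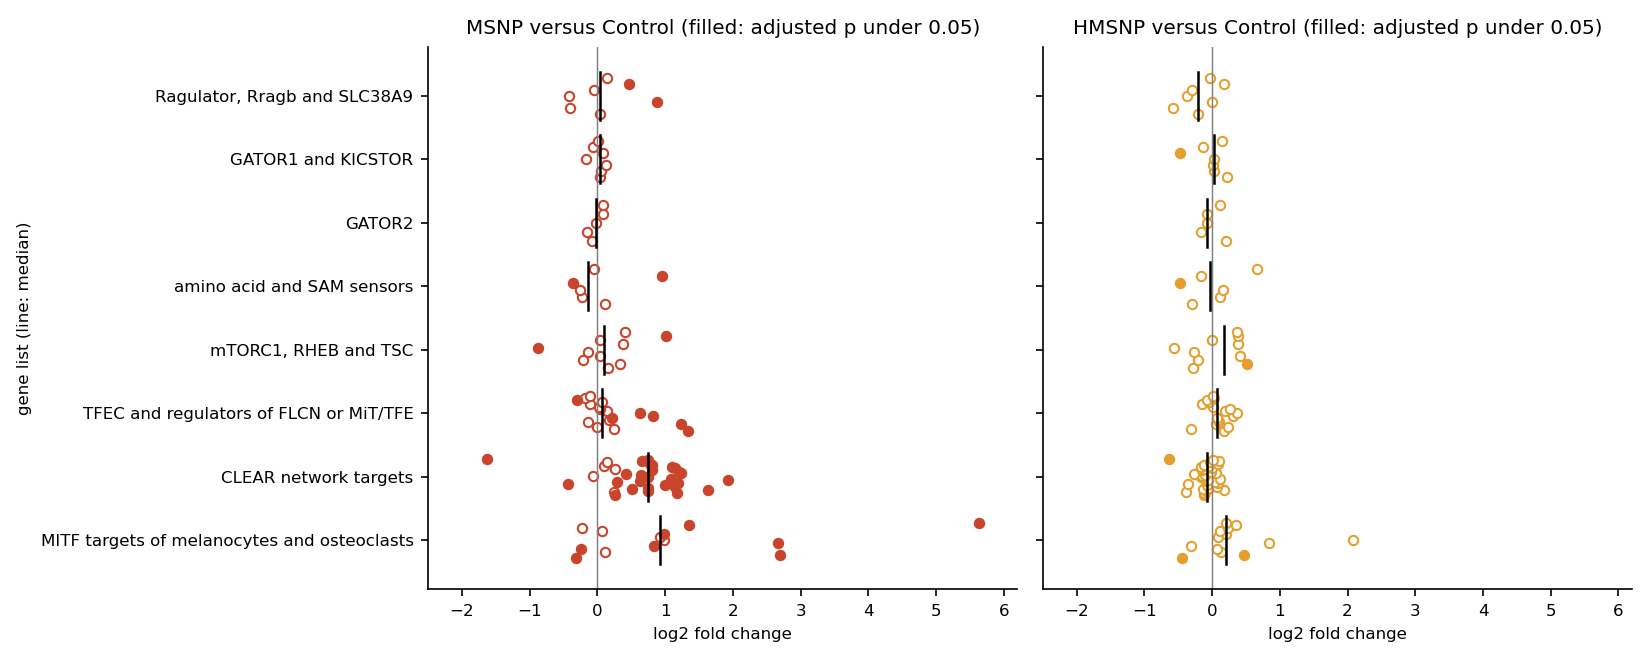
Log2 fold change against Control of each gene in 8 pathway lists, in MSNP (left) and HMSNP (right), with filled points for an adjusted p under 0.05 and a black line at each list's median. In MSNP the CLEAR genes centre on 0.75 and the MITF targets on 0.92, and in HMSNP they centre on -0.08 and 0.20.

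The genes whose levels most resembled those of the loop were named by Pearson's r on log2 CPM over the 15 libraries, among 11539 genes with a mean of at least 1 CPM. The libraries fall into a MSNP group and the rest, so r is a description and carries no p. Tfeb was left out by the rule, since it was not called against Control in any treated group. Rragc and Gpnmb were each other's nearest gene (r = 0.998), and Rragc was the third nearest to Rragd (r = 0.991), after Aph1c (r = 0.994), a gamma-secretase subunit, and Gnpda1 (r = 0.991). Nearest to Flcn were Bhlhe41, Asb10 and Cd200r4 (r = 0.991 each). Nearest to Fnip2 was Plekhm1 (r = 0.994), an adaptor for lysosome fusion, and nearest to Fnip1 was Mpeg1 (r = 0.995). Mitf lay nearest to Xirp1 (r = 0.988), Tafa3 (r = 0.987) and Csf1r (r = 0.986), and Tfe3 to Akr1b8 (r = 0.988). Rraga lay nearest to Lat2 (r = 0.979).

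The E-box motifs were counted for all genes as a background for the promoters shown above. In the wider windows, TCACGTG was present in 8.25% of 21770 protein-coding genes, in 17.1% of the 2202 called higher in MSNP, in 5.95% of the 1764 called lower and in 9.65% of the 9169 tested and not called. For CACGTG these shares were 17.3%, 26.5%, 17.9% and 20.1%. For TCATGTG, the motif held by Gpnmb, they were 9.45%, 9.81%, 5.56% and 6.73%. These shares were not tested, and base composition and expression level were not matched between the groups. Of the 7 genes of the loop called higher in MSNP, 3 (Rragc, Rragd and Fnip1) held CACGTG, and neither Tfe3 nor Mitf did.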

How the data were processed

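RNA was measured in 15 libraries of RAW 264.7 cells, grouped by their labels. According to the study's methods, the authors prepared libraries from poly(A) RNA and mapped read pairs to the mouse genome. The submitters' processing notes name cutadapt 1.16, STAR 2.7.9a, featureCounts 1.6.3 and GRCm39. The deposited table holds a raw, unnormalized count for each gene in every single library. Counting options are not given in the sources used here. Symbols, positions and exon lengths came from GENCODE vM39, which held 56630 of 57186 identifiers, the rest taking 0.0224% of the counts.

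Genes whose 15 counts summed to 10 or more were tested with edgeR 4.0.16 in R 4.3.3 (TMM normalization, 1 model of all 15 libraries, quasi-likelihood test, Benjamini-Hochberg adjustment over all 19839 genes, threshold 0.05). CPM used TMM library sizes and TPM the merged exon length. Shares of TPM were compared by exact permutation. Promoter windows came from RefSeq on GRCm38.p6 and from GRCm39. The alternatives were DESeq2 1.42.0, RLE normalization, the filterByExpr filter, no filter, fitting 6 libraries at a time, a replicate block, an offset for transcript length and leaving out each library. The fit was tested on simulated counts with the same spread for every gene and library. That test does not cover the wider spread or the length trend seen among the Control libraries.

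The 10 genes and the lists were chosen with earlier results of these data known. The genes named are the 10 genes, the listed genes and the 3 genes most like each of the 10 that was called against Control, by correlation. Nothing states that the 3 libraries of a group came from separate cultures, so the spread between them may be technical. The p-values of fits over all groups use a spread of each gene pooled over the 5 groups. The Control libraries varied more, as for Fnip2, with an SD of 41.9% of the mean in Control and 3.34% in HMSNP. Where this holds, the pooled spread lies below that of Control and above that of the treated groups. Depth was 29369934 to 42617812 counts per library.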

Additional observations from a re-analysis of the deposited data

How the results depend on the processing

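Of 1610 log2 fold changes of the 10 genes under other settings (70 values, 23 settings), 1540 kept their side of the threshold, 40 gained a call and 29 lost one. The remaining 1 was called with its direction reversed. Direction was not compared where neither fit called the gene, and some of those values changed sign. Without Control replicate 3, Tfeb in SNP100 against Control went from -0.13 to 0.05 and Mitf in HMSNP against Control from 0.05 to -0.14. The reversed value was Mitf in HMSNP against Control, which was 0.05 with all libraries and -0.15 (adjusted p = 0.0403, edgeR) with the length-trend offset and Control replicate 3 left out, a setting chosen after seeing the data. The number of the 10 genes called in SNP100 against Control was 4, and it was 0 with only the 6 libraries of the comparison, 7 with the length-trend offset without Control replicate 3, and 3 to 7 when single libraries were left out (7 without Control replicate 3). In SNP50 it was 3, and it was 5 with DESeq2, 0 with only its 6 libraries, 5 with that offset without Control replicate 3, and 1 to 8 when single libraries were left out (1 without any SNP50 library, 8 without Control replicate 3). In HMSNP it was 0, and it was 1 with the length-trend offset alone, 3 with the offset without Control replicate 3, and 0 to 4 when single libraries were left out (4 without Control replicate 2, 1 without Control replicate 3). The cause of these differences was not tested. Over all genes, fits of 6 libraries called fewer genes against Control in each treated group. They called more in HMSNP against MSNP (3577 higher and 3565 lower, against 1829 and 2181 with all libraries). Leaving out single libraries gave 9 to 10 in MSNP, 9 to 10 in MSNP against SNP100, 10 in HMSNP against MSNP and 0 in SNP50 against SNP100.

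Replicate numbers did not pair the libraries. Of 30 pairs with the same number, 10 had a correlation of deviations over 0.1 (-0.52 to 0.57, median 0.02). With the replicate block, the genes called against Control numbered 5 for SNP100, 2 for SNP50, 9 for MSNP and 0 for HMSNP, 9 in MSNP against SNP100, 0 in SNP50 against SNP100 and 10 in HMSNP against MSNP. Counts limit precision mainly for Rragd, with 9 to 17 reads in the Control libraries.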
